A study of Mus musculus with 30 samples.

Results

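The genes examined here encode proteins of B-cell receptor signalling: Cd79a, Cd79b, Cd81, Blnk, Btk, Syk, Lyn, Fyn and Plcg2. A gene was read from the probe set whose platform annotation carried its symbol alone, and 8 of the 9 genes had such a probe set, 1 each, among 19937 genes measured in this way. Lyn, a Src-family kinase, had none and was not analysed here. Levels are log2 values after robust multi-array averaging, so a difference of 1 is a 2-fold difference in signal.

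The arrays came from a mouse lymphoma line, called parental, with the genotype Eμ-Myc; Cdkn2a-/- on a C57BL/6J background. The Eμ immunoglobulin enhancer drives Myc in B-lineage cells, and Cdkn2a encodes p16INK4a and p19ARF. Every culture, treated or not, carried both alterations, descended from 1 lymphoma, and was grown on irradiated Cdkn2a-/- mouse embryonic fibroblasts. Parental cells were sampled untreated (0 h, 5 arrays) and after 6, 12, 24 and 48 h in 750 nM mafosfamide (4, 4, 5 and 5 arrays), a form of cyclophosphamide that is active in culture. The resistant lines R100, R500, R1000 and R4000 were taken from the parental line at rising doses of mafosfamide and were measured untreated, 1 array each; R500, R1000 and R4000 were also measured after 24 h of 750 nM mafosfamide, 1 array each. The resistant lines are steps of the same dose escalation and not independent derivations.

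The B-cell receptor is a surface immunoglobulin that signals through its partner chains CD79A and CD79B. Src-family kinases such as LYN and FYN phosphorylate these chains, SYK then docks on them, and the adaptor BLNK brings BTK to phospholipase C-gamma-2, the product of Plcg2, which releases calcium and activates protein kinase C. CD81 is a tetraspanin, a membrane protein that organises other proteins at the B-cell surface. Signalling through this receptor supports the survival of mature B cells.

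Array medians lay between 7.28 and 7.44, and the interquartile range was 3.34 to 3.64 on all arrays except the fifth 0 h array, where it was 3.07. Of the B-lineage list, which also holds Cd79a and Cd79b, 9 of 10 genes were measured, with mean log2 levels over the 30 arrays of 11.81 for Pax5, 12.27 for Ebf1, 11.61 for Cd22, 12.38 for Cd74, 9.68 for Ms4a1, 10.56 for Igll1 and 7.61 for Vpreb1. The mean of this list was 11.28 ± 0.31 (SD, n = 5) at 0 h and 11.61 ± 0.18 (SD, n = 5) at 24 h, when 2 of its genes rose, the surrogate light chain genes Vpreb1 (0.90, adjusted p = 0.00829) and Igll1 (1.73, adjusted p = 0.00843). Of the feeder fibroblast list, 26 of 30 genes were measured, and their mean level rose from 8.22 ± 0.21 (SD, n = 5; 8.04 to 8.57) at 0 h to 9.13 ± 0.55 (SD, n = 5; 8.36 to 9.84) at 24 h. T and NK cell markers (11 of 14 measured) averaged 6.32 to 6.48 and myeloid markers (12 of 13) 7.26 to 7.45 in every group. RNA was taken from whole cultures, so fewer cells of a type and less RNA per cell cannot be told apart.

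The receptor chains themselves kept nearly the same mean level in every group, while single arrays spread more widely. Over the 30 arrays Cd79a ran from 13.23 to 13.62 and Cd79b from 13.40 to 13.74. Cd79a was at 13.31, 13.60, 13.38, 13.34 and 13.23 on the 5 untreated parental arrays and at 13.30, 13.43, 13.38, 13.32 and 13.27 after 24 h. Cd79b was at 13.72, 13.74, 13.49, 13.57 and 13.50 untreated and at 13.68, 13.63, 13.53, 13.40 and 13.49 after 24 h. The arrays of the 2 times overlapped for both chains. Over the 7 groups the means of Cd79b spanned 0.07, a span that was smaller in 1.63% of the 4609 genes whose mean was at least that of Fyn, and those of Cd79a spanned 0.14, with 16.9% smaller. Against 0 h, the largest change of Cd79a in treated parental cells was 0.07 (95% confidence interval −0.07 to 0.21) at 48 h, and that of Cd79b was −0.07 (−0.21 to 0.07) at 12 h. All intervals for both chains against 0 h spanned 0.

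The members that moved in parental cells were Cd81, Fyn and Plcg2, a tetraspanin, a kinase and the phospholipase. Their promoters are printed beside that of Cd79a, which did not pass the test at any time, to set the genes that rose against a receptor chain. Each sequence is the 250 bases before the gene's start in RefSeq on GRCm38.p6, read along the plus strand, which is the coding strand of all 4 genes, and the capitals mark 3 forms of the E-box, the hexamer bound by basic helix-loop-helix factors. These are CAGCTG, then the form CAGGTG, which reads CACCTG on the other strand, and the Myc-type form CACGTG, each searched on both strands.
Cd81, chr7:143052500-143052749: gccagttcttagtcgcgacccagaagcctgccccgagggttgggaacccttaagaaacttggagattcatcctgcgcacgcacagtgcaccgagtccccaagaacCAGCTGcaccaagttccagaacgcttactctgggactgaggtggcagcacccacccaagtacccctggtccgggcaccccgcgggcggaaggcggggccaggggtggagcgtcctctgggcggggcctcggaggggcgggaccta
Fyn, chr10:39369549-39369798: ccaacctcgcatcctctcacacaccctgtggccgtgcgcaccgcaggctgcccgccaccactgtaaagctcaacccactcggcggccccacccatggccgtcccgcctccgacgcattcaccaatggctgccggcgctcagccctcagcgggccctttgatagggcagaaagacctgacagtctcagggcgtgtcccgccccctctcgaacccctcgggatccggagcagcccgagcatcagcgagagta
Plcg2, chr8:117498025-117498274: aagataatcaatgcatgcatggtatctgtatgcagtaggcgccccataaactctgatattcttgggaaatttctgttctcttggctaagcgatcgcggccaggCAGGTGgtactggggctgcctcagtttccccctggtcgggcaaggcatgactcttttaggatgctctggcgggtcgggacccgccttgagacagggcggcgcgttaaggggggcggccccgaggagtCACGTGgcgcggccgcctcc
Cd79a, chr7:24897247-24897496: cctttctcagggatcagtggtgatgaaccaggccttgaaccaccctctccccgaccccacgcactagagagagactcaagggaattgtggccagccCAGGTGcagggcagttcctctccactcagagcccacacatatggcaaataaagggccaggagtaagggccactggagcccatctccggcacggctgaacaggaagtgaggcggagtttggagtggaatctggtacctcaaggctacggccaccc
The Cd81 window held 1 CAGCTG, a hexamer present in 13% of 32851 promoter windows of the same length. The Plcg2 window held 1 CAGGTG, present in 17.2%, and 1 CACGTG, present in 6.02%, and the Cd79a window held 1 CAGGTG. Among other members that did not pass, 1 CAGGTG lay in the Blnk window and in each Syk window, a gene with more than 1 start. The Btk window held none of the 3 forms. The marked hexamers thus did not separate the members that rose from the others. No hexamer of the general form CANNTG, of which the other 3 are cases, lay in the Fyn window, while 66.2% of the windows held one. A match of letters is a description of the sequence, not a binding site.

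Cd81 rose within 12 h of mafosfamide and stayed up at 24 h. Its levels were 12.26, 12.42, 12.47, 12.57 and 12.52 on the 0 h arrays. At 6 h they were 12.46, 12.56, 12.49 and 12.47, within the untreated range. At 12 h they were 12.82, 12.70, 12.68 and 12.67, at 24 h 12.81, 12.73, 12.75, 12.67 and 12.69, and at 48 h 12.60, 12.69, 12.76, 12.70 and 12.67. Every array from 12 h on lay above every untreated array. The mean rose from 12.45 ± 0.12 (SD, n = 5) at 0 h to 12.72 ± 0.07 (SD, n = 4) at 12 h and 12.73 ± 0.05 (SD, n = 5) at 24 h. In limma's fit this was a log2 change of 0.27 (SE 0.061, 1.21-fold, adjusted p = 0.0459) at 12 h and 0.28 (SE 0.058, 1.22-fold, adjusted p = 0.00773) at 24 h. At 48 h the change was 0.24 (SE 0.058, adjusted p = 0.0929) and did not pass in this fit. The fit with a block, given below, called it (adjusted p = 0.0211).

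Fyn, a Src-family kinase also found in T cells and fibroblasts, had the largest change and the largest spread. Its levels were 9.71, 9.32, 9.91, 9.95 and 9.74 at 0 h. At 12 h they were 9.98, 10.32, 10.20 and 10.22, all above the untreated arrays, and at 24 h 10.08, 9.86, 10.56, 10.42 and 10.40. The second 24 h array lay within the untreated range. The mean went from 9.72 ± 0.25 (SD, n = 5) to 10.26 ± 0.29 (SD, n = 5) at 24 h, a rise of 0.54 (SE 0.15, 1.45-fold, adjusted p = 0.0322). At 6 h Fyn differed from 0 h by 0.24 (SE 0.16) and at 12 h by 0.46 (SE 0.16, adjusted p = 0.258). At 48 h the difference was 0.26 (SE 0.15). None of these passed in this fit, while the fit with a block, given below, called those at 12 and 48 h. Within the same replicate number the 24 h array exceeded the 0 h array in 5 of 5 pairs, by 0.38 to 0.66.

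Plcg2 rose by less, but with little spread between arrays. It was at 12.16, 12.21, 12.21, 12.12 and 11.99 at 0 h. After 24 h it was at 12.30, 12.26, 12.39, 12.38 and 12.30, with no overlap. The change at 24 h was 0.19 (SE 0.050, 1.14-fold, adjusted p = 0.0309), from 12.14 ± 0.09 to 12.33 ± 0.05 (SD, n = 5 each). Plcg2 lay above every untreated array also at 6 h (12.26, 12.28, 12.26 and 12.31), 12 h (12.22, 12.31, 12.22 and 12.23) and 48 h (12.27, 12.28, 12.22, 12.27 and 12.23), where the changes of 0.14, 0.11 and 0.12 did not pass. Its residual SD among parental arrays of a time was 0.055, smaller than in all but 1.95% of the 4609 genes.

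The adaptor and the other kinases showed no change that passed the test at any time. Syk, the kinase that docks on the receptor chains, stood at 11.65, 11.62, 11.66, 11.77 and 11.59 at 0 h and at 11.73, 11.86, 11.77 and 11.75 at 12 h, overlapping, with a change of 0.12 (SE 0.055, adjusted p = 0.414). Btk, the kinase that activates the phospholipase, ranged from 11.05 to 11.32 at 0 h and from 10.98 to 11.39 at 24 h. Blnk ranged from 12.06 to 12.24 at 0 h and from 11.89 to 12.14 at 6 h, with 0 of 4 same-numbered pairs higher, and the change was −0.12 (SE 0.064, adjusted p = 0.995). For all 3 genes the arrays of each time overlapped those of 0 h.

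**Figure D1:**
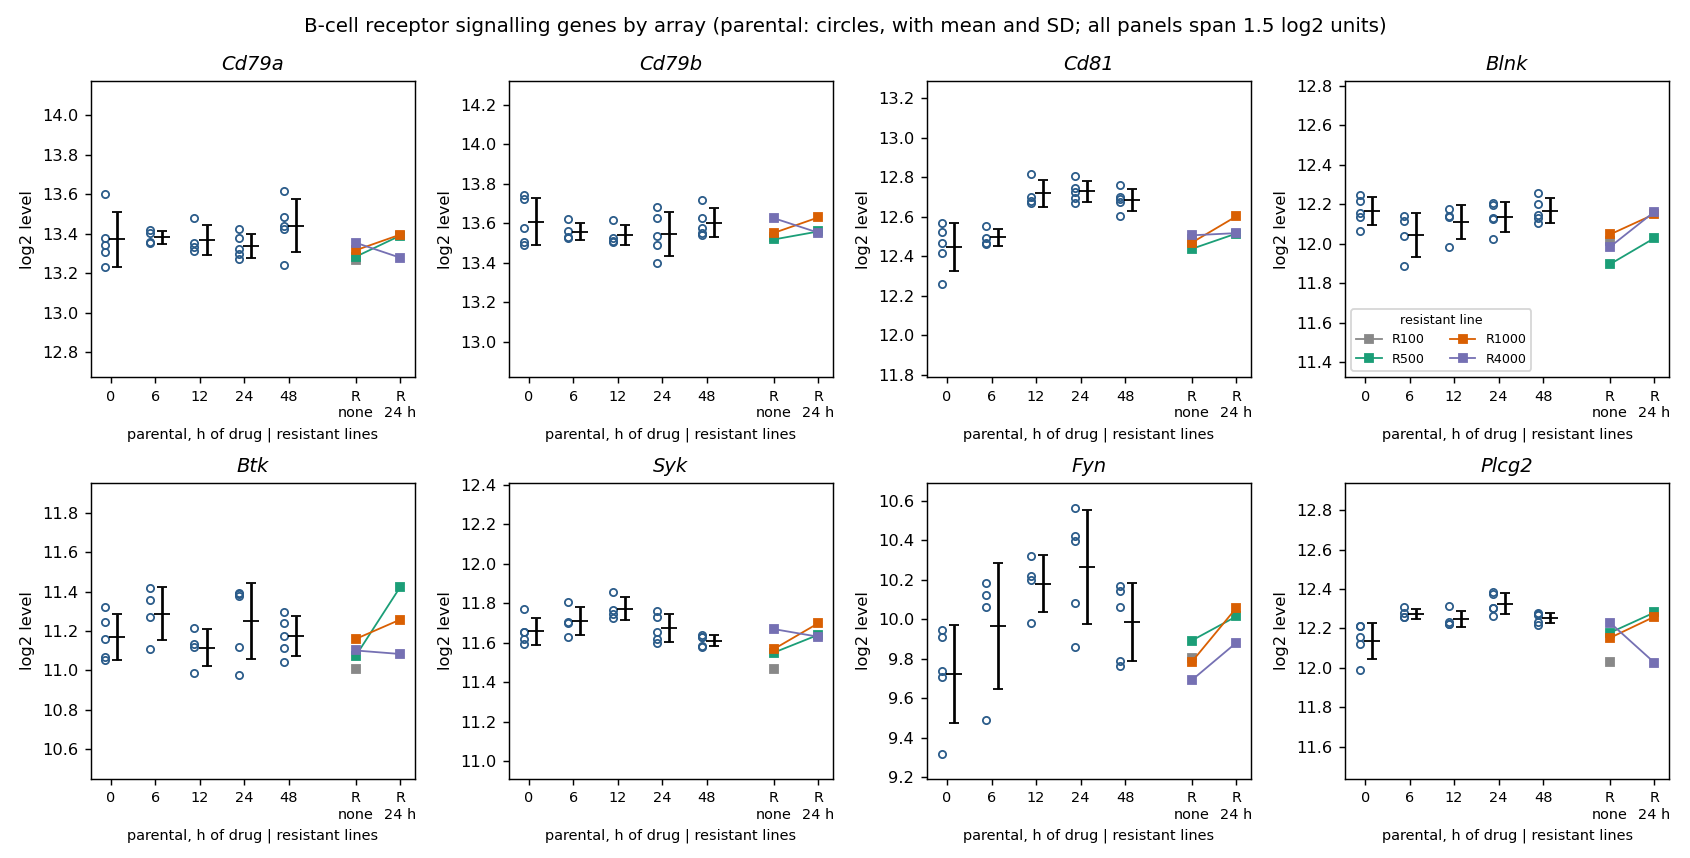
Log2 level of each measured gene (vertical axis) on every array, for parental cells at each time in hours of mafosfamide (circles, with mean and SD to the right) and for the resistant lines untreated and after 24 h (squares, joined within a line). Cd81 and Plcg2 lie above all untreated parental arrays at 24 h, Fyn spreads from 9.86 to 10.56 there, and the group means of Cd79a and Cd79b stay nearly level.

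Counted over the members, 0 of 8 passed at 6 h, where 0.0201% of all genes did, 1 of 8 at 12 h (background 0.512%, 0.466% in the upward direction), 3 of 8 at 24 h (6.78%, 4.35% upward), and 0 of 8 at 48 h (0.251%). At an unadjusted p under 0.05, the limma counts were 1 at 6 h and 2 at 48 h, against 5.13% and 11.7% of all genes. Members whose arrays lay wholly above those of 0 h numbered 1 at 6 h (Plcg2), 3 at 12 h (Cd81, Fyn and Plcg2), 2 at 24 h (Cd81 and Plcg2) and 2 at 48 h (the same pair), where 0.657%, 1.71%, 1.98% and 0.672% of all genes did so. All 4 times were compared with the same untreated arrays, so these counts are not independent of each other. The median change of the 8 members at 24 h was 0.05, beside −0.04 for all genes. From 24 to 48 h no member passed (0 of 8, background 0.105%; at an unadjusted p under 0.05, 0 members and 6.77% of genes).

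Arrays that share a number in the sample descriptions deviated together at most pairs of times, and a fit with that number as a block gave more calls. At 6 h it called no member, with 0.311% of all genes called. At 12 h it called 2 members, Cd81 (0.26, adjusted p = 0.0234) and Fyn (0.42, adjusted p = 0.00244), with 3.55% of all genes called. From 24 to 48 h it called Fyn, which fell by 0.28 (adjusted p = 0.0397; 1.04% of genes). At 24 h the same 3 members were called as without the block, with 23.6% of all genes called. At 48 h it called Cd81 (0.24, adjusted p = 0.0211) and Fyn (0.26, adjusted p = 0.0291), with 3.28% of all genes called.

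**Figure D2:**
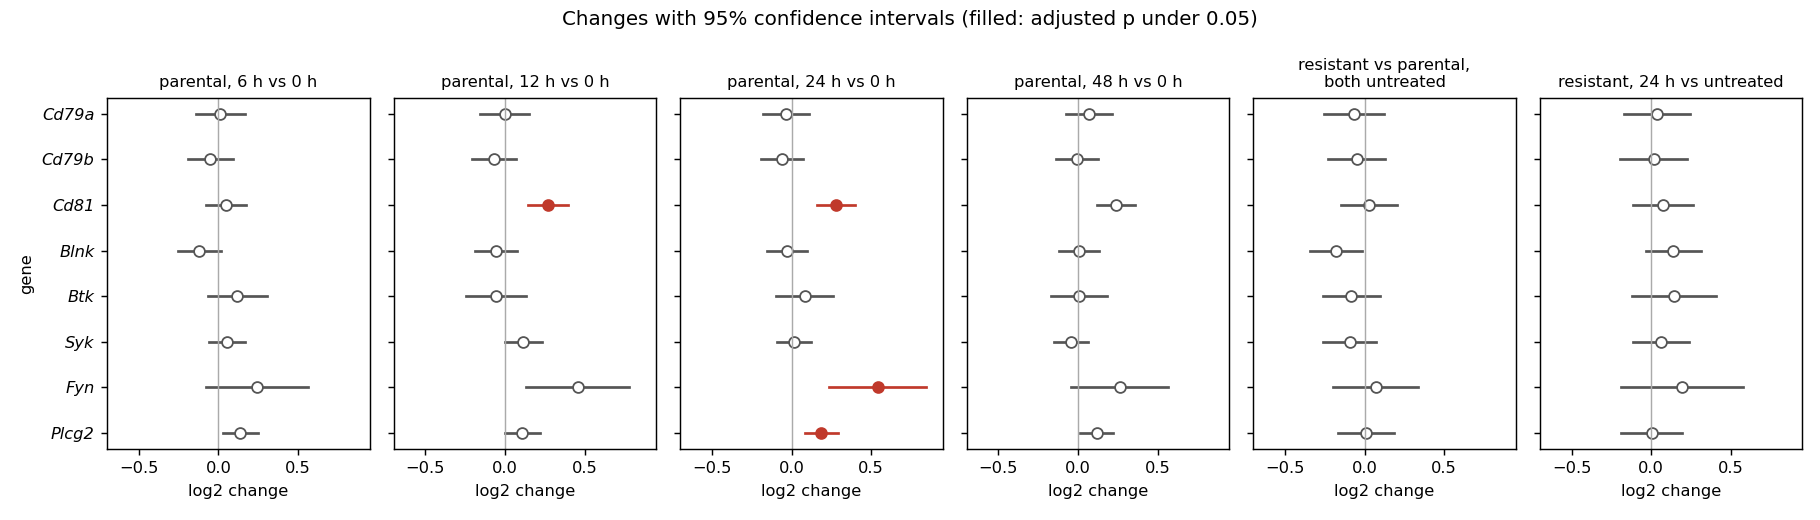
Log2 change (horizontal axis) of the 8 measured genes with its 95% confidence interval in 6 comparisons, filled where the adjusted p was under 0.05. The filled points are Cd81 at 12 h and Cd81, Fyn and Plcg2 at 24 h in parental cells; every interval in the resistant lines except that of Blnk untreated spans 0.

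The feeder fibroblast markers moved with time as well, and Cd81 and Fyn are also known to be expressed by fibroblasts. Of the 26 genes, 16 rose at 24 h and none fell, with a median change of 0.86; Col1a1 changed by 0.46 and Acta2 by 1.65. Across the 23 parental arrays, each time's mean was removed before correlation with the fibroblast list. Pearson's r was 0.06 for Cd81, −0.52 for Fyn and −0.30 for Plcg2. Among the members that did not pass it was −0.44 for Btk, −0.27 for Syk, −0.09 for Cd79a, 0.02 for Blnk and 0.42 for Cd79b. Negative values were thus not limited to members that rose. These points share arrays and scaling and the values are descriptive. The 2 arrays with the highest list means at 24 h, at 9.84 and 9.43, had the lowest Fyn levels of that time, 10.08 and 9.86. Without those 2 arrays, a choice made after the values were seen, the changes at 24 h were 0.26 for Cd81 (adjusted p = 0.0449), 0.74 for Fyn (adjusted p = 0.0113) and 0.22 for Plcg2 (adjusted p = 0.0475). For Fyn, leaving out its lowest arrays of that time raises the change by construction. With the list mean as a covariate Fyn changed by 0.85 (adjusted p = 0.00854), while Cd81 at 0.27 (SE 0.079, adjusted p = 0.0745) and Plcg2 at 0.23 (SE 0.068, adjusted p = 0.0827) no longer passed. Without the covariate these changes were 0.28 (SE 0.058) for Cd81 and 0.19 (SE 0.050) for Plcg2. The list mean itself rose by 24 h, and the part of feeder content in these changes was not tested. The covariate fit called 2.58% of all genes at 24 h, beside 6.78% without it.

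**Figure D3:**
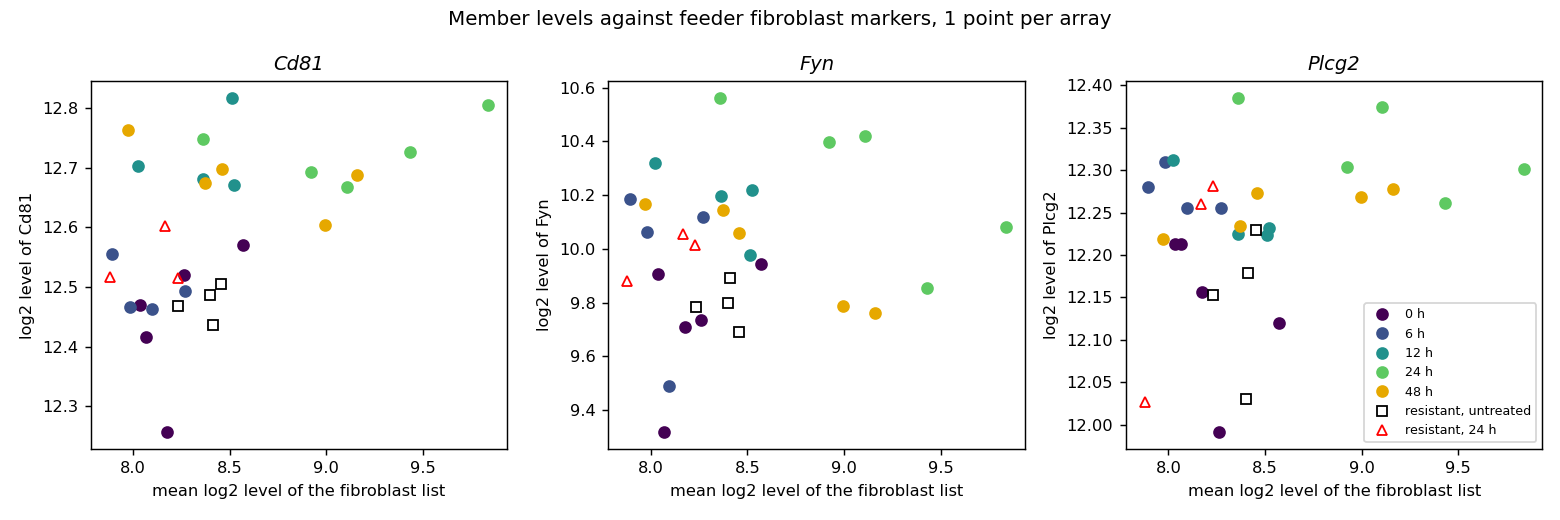
Log2 level of Cd81, Fyn and Plcg2 (vertical axes) against the mean log2 level of the 26 fibroblast markers (horizontal axis), 1 point per array, coloured by time for parental cells. At 24 h the list mean spans 8.36 to 9.84, and Fyn is lowest on the 2 arrays with the highest list means.

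The calls at 12 and 24 h also depended on how arrays were scaled and on single arrays. Centring each array on its median left only Cd81 called at 24 h (0.26, adjusted p = 0.0194), centring on the 75th percentile left none (Cd81 0.18, Fyn 0.44 and Plcg2 0.09), and without the fifth 0 h array, the third 24 h array or the fourth 24 h array only Cd81 was called. A fit of the 0 and 24 h arrays alone called none, and at 12 h Cd81 was lost under both centrings (adjusted p = 0.0602 with the median) and without any of the 4 arrays of 12 h.

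In the untreated resistant lines no member passed the test against untreated parental cells. The 4 lines, in the order R100, R500, R1000 and R4000, stood at 12.01, 11.90, 12.05 and 11.98 for Blnk, below all 5 parental arrays (12.14, 12.22, 12.06, 12.24 and 12.16). The difference in Blnk was −0.18 (95% confidence interval −0.34 to −0.02, adjusted p = 0.637), and 1.33% of all genes had lines wholly below the parental arrays. Cd81 was at 12.49, 12.44, 12.47 and 12.51 in the lines, all within the untreated parental range. Plcg2 was at 12.03, 12.18, 12.15 and 12.23. Fyn was at 9.80, 9.89, 9.78 and 9.69, a difference from the parental mean of 0.07 (95% confidence interval −0.20 to 0.34). For the receptor chains the differences were −0.07 (−0.26 to 0.12) for Cd79a and −0.05 (−0.23 to 0.13) for Cd79b.

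Of the 8 members, 0 passed in limma's fit of the mean difference (background 0.0752%) and 0 in that of a slope along the order of resistance (0%); at an unadjusted p under 0.05 these counts were 1 (Blnk) and 0, beside 7.1% and 4.36% of genes. The slopes lay between −0.05 per step for Blnk and 0.02 for Plcg2. The fibroblast list averaged 8.37 ± 0.10 (SD, n = 4) in these lines.

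In R500, R1000 and R4000, 24 h of mafosfamide moved no member past the threshold. The estimates of all 8 were above 0, those of Plcg2 (0.00) and Cd79b (0.02) only barely. The median of the 8 was 0.07, beside −0.02 for all genes, and the share of all genes above 0 was not counted. Cd81 went from 12.44 to 12.51 in R500, from 12.47 to 12.60 in R1000 and from 12.51 to 12.52 in R4000. Fyn went from 9.89 to 10.01, from 9.78 to 10.06 and from 9.69 to 9.88. Both genes were thus higher after treatment in 3 of 3 lines, as was Blnk, which went from 11.90 to 12.03, from 12.05 to 12.15 and from 11.98 to 12.16. Plcg2 went from 12.18 to 12.28 and from 12.15 to 12.26 in R500 and R1000, but from 12.23 to 12.03 in R4000. The fitted changes were 0.07 (95% confidence interval −0.12 to 0.26) for Cd81, 0.20 (−0.19 to 0.58) for Fyn, 0.14 (−0.03 to 0.31) for Blnk and 0.00 (−0.19 to 0.19) for Plcg2. Their adjusted p-values were all 0.9997, with 0.0301% of genes called; at an unadjusted p under 0.05, 0 members and 2.9% of genes passed. R4000 was the line in which Cd79a, Cd79b, Btk, Syk and Plcg2 were lower after treatment than before, and in R500 and R1000 all 8 members were higher. Each line gave only 1 array untreated and 1 treated, so these directions have no replicate.

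The difference in response between resistant and parental cells was tested directly. It was −0.21 for Cd81 (95% confidence interval −0.45 to 0.03, adjusted p = 0.667), −0.35 for Fyn (−0.83 to 0.14, adjusted p = 0.701) and −0.18 for Plcg2 (−0.43 to 0.06, adjusted p = 0.695). No member passed (0 of 8, background 0%; at an unadjusted p under 0.05, 0 members and 7.83% of genes). The rise of these 3 genes in parental cells at 24 h is therefore not shown to differ from their response in the resistant lines, with intervals wide enough to include no response as well as an equal one.

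Set against parental cells at 24 h, the treated lines had Cd81 at 12.51, 12.60 and 12.52, below all 5 parental arrays (12.67 to 12.81). The difference was −0.18 (95% confidence interval −0.32 to −0.05, adjusted p = 0.192); 6.74% of all genes had treated lines wholly below. No member passed (0 of 8, background 0.647%; at an unadjusted p under 0.05, 1 member, Cd81, and 14.8% of genes). Fyn differed by −0.28 (−0.61 to 0.05, adjusted p = 0.419). Without the 2 parental arrays of highest fibroblast level, a choice made after the values were seen, Fyn differed by −0.48 (adjusted p = 0.0221). Those arrays also had the lowest Fyn levels of parental cells at 24 h. Leaving them out raises the parental mean of Fyn by construction, so no conclusion is drawn from that fit. The fibroblast list averaged 8.09 ± 0.19 (SD, n = 3) in the treated lines and 9.13 in parental cells at 24 h; its part in these differences was not tested beyond the values given.

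By group mean, Cd81 and Fyn had the same order. Parental cells at 24 h were highest, then those at 12 h and 48 h. The treated resistant lines, parental cells at 6 h, the untreated resistant lines and last parental cells at 0 h followed. This match rests in part on near ties. For Fyn the gap between parental cells at 48 h and the treated lines was 0.0001, beside an SD of 0.20. For Cd81 the gap between 24 h and 12 h was 0.01, beside an SD of 0.07. For Cd81 the arrays of parental cells at 48 h (12.60 to 12.76) and of the treated lines (12.51 to 12.60) did not overlap, the lowest parental value being 12.604 and the highest line value 12.602. These groups nearly touched, and the share of all genes without overlap between them was not counted. All other neighbours in the order of Cd81, and all neighbours in that of Fyn and the other 6 members, overlapped. The untreated resistant lines were the lowest group for Cd79a, Blnk, Btk and Syk, and parental cells at 24 h the highest for Cd81, Fyn and Plcg2.

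The wider pathway was read from 60 other genes, of which 54 were measured. At 24 h 5 rose and 1 fell, beside 6.78% of all genes called. Of the 54 changes 40 were above 0, with a median of 0.12 against −0.04 over all genes. The share of all genes above 0 was not counted. Among 9 surface molecules, Cr2, a complement receptor of B cells, rose by 0.74 (adjusted p = 0.0227), from 6.27, 6.55, 6.65, 6.42 and 6.57 to 6.71, 6.92, 7.85, 7.21 and 7.48. No 24 h array of Cr2 overlapped the untreated ones, and 1.98% of all genes lay wholly above in this way. The untreated mean of Cr2, 6.49, was near the means of the T and NK cell markers, 6.32 to 6.48. The other 8 did not pass; Ighm, the heavy chain of the receptor, changed by −0.12 (adjusted p = 0.373).

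The largest change of the pathway was that of Ptpn22, a phosphatase that restrains Src-family kinases. It was at 7.15, 8.28, 7.11, 7.18 and 6.82 untreated and at 8.89, 8.96, 9.45, 8.44 and 8.26 at 24 h, where only the second untreated array reached the treated range. The rise was 1.49 (SE 0.32, adjusted p = 0.00979), and at 48 h 1.73 (SE 0.32, adjusted p = 0.0174), the only pathway call of that time in the fit without a block; with the fibroblast covariate Cr2 and Ptpn22 were called at 48 h (0.722% of genes). Csk, the kinase that also restrains Src-family kinases and binds PTPN22, fell by 0.30 (SE 0.066, adjusted p = 0.0128) at 24 h. Its levels went from 12.22, 12.42, 12.53, 12.37 and 12.16 to 12.01, 12.04, 12.09, 12.04 and 12.05, without overlap. Over all genes, 2.6% lay wholly below the untreated arrays at 24 h. The other 7 kinases and phosphatases, Blk and Ptpn6 among them, did not pass.

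Of 16 adaptors, Stap1 (0.55, adjusted p = 0.0367), a docking protein phosphorylated downstream of the receptor, and Sh3bp2 (0.43, adjusted p = 0.0370), an adaptor that binds SYK and phospholipase C-gamma, rose at 24 h; Sh3bp2 was the fifth by p and was named after its values were seen. Of 20 effectors, Plcg1, the phospholipase of T-cell receptor signalling and the paralog of Plcg2, rose by 0.46 (adjusted p = 0.0321). At 6 and 12 h 0 of 54 passed in limma's fit, with 4 and 7 at an unadjusted p under 0.05, beside 5.13% and 11.9% of all genes. Between 24 and 48 h Itpr2, a calcium release channel, fell by 0.41 (adjusted p = 0.0316). With the number in the sample descriptions as a block the counts were 1 lower at 6 h (Ptprj, −0.59; 0.311% of genes), 3 higher at 12 h (Ptpn22, Stap1 and Dapp1; 3.55%), 12 higher and 1 lower at 24 h (23.6%), and 1 higher and 2 lower from 24 to 48 h (Pirb, Plcg1 and Itpr2; 1.04%).

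With the fibroblast covariate 7 pathway genes rose at 24 h (Cr2, Cd5, Lair1, Ptpn22, Lcp2, Stap1 and Cbl) and none fell, beside 2.58% of all genes called, and Csk, Sh3bp2 and Plcg1 were no longer called. Among parental arrays of a time Cr2 had a correlation of −0.89 with the fibroblast list and Ptpn22 one of −0.25. Centring on the median left 3 higher and 1 lower (9.11% of all genes), and centring on the 75th percentile 2 higher and 2 lower (4.78%); Ptpn22 was called higher and Csk lower under both.

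In the resistant lines 0 of the 54 pathway genes passed untreated, along the order of resistance, in the response to treatment or in the difference in response, with 8, 2, 5 and 4 at an unadjusted p under 0.05 in limma's fits, where 7.1%, 4.36%, 2.9% and 7.83% of all genes did so. After 24 h of mafosfamide Plcg1 was lower in the treated lines than in parental cells by 0.90 (SE 0.094, adjusted p = 0.00844). This was the only call in that comparison, 1 of 54, beside 0.647% of all genes. At an unadjusted p under 0.05 in limma's fit, 11 of the 54 passed, beside 14.8% of all genes. Plcg1 stood at 8.30, 8.39 and 8.17 in R500, R1000 and R4000 and at 9.20, 8.94, 9.34, 9.26 and 9.19 in parental cells. Untreated, Plcg1 was at 8.27, 8.60, 8.30 and 8.61 in the lines and at 8.66, 8.43, 8.63, 8.99 and 8.91 in parental cells, with overlap. Ptpn22 was at 7.78, 7.59 and 6.68 in the treated lines, below all 5 parental arrays at 24 h, as were 6.74% of all genes. This difference did not pass. Cr2 was higher after treatment in R500 (6.64 to 7.66), R1000 (7.29 to 8.59) and R4000 (6.48 to 7.15), and its response did not pass either.

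**Figure D4:**
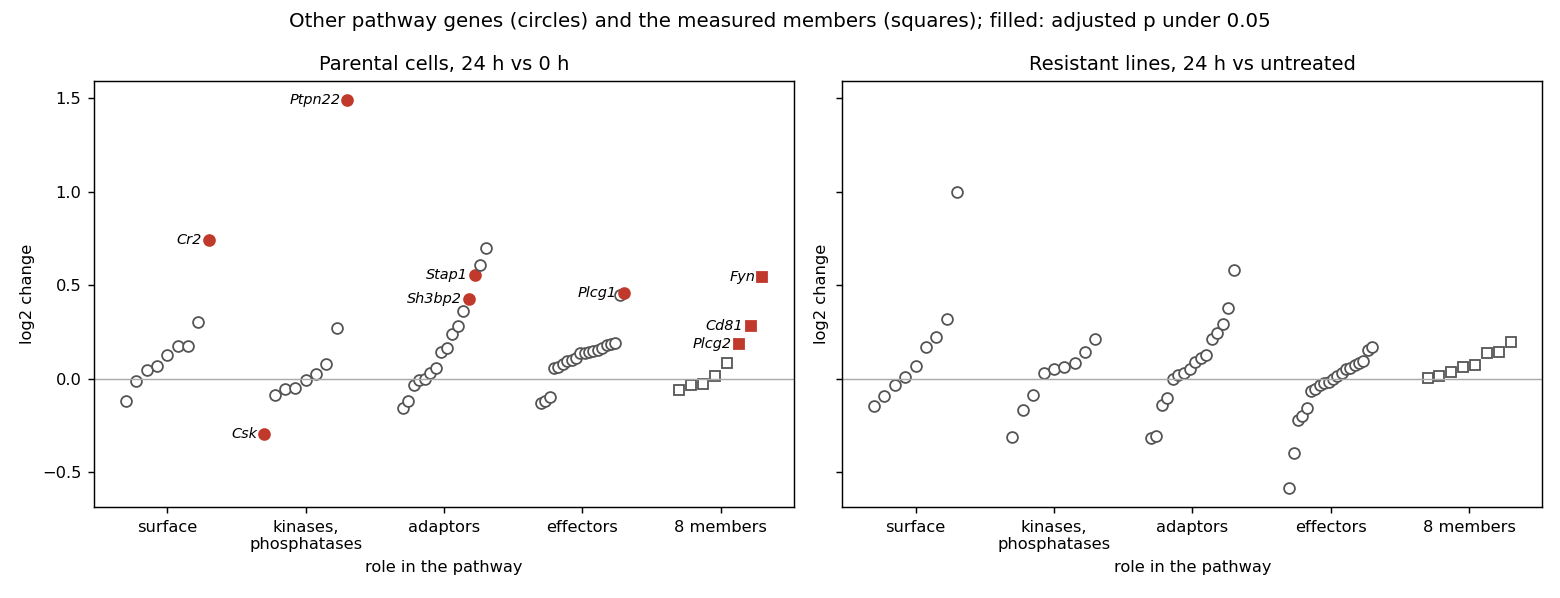
Log2 change (vertical axis) of 54 other pathway genes by role (circles) and of the 8 members (squares), in parental cells at 24 h (left) and in the resistant lines after treatment (right), filled where the adjusted p was under 0.05. In parental cells Ptpn22, Cr2, Stap1, Plcg1 and Sh3bp2 rose and Csk fell; no gene is filled on the right.

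Over the 30 arrays the members correlated only in part with each other. Pearson's r was 0.60 between Cd81 and Fyn, 0.52 between Fyn and Plcg2, 0.52 between Syk and Fyn, 0.32 between the receptor chains Cd79a and Cd79b, and −0.63 between Cd79b and Fyn. The arrays share treatment groups, feeder content and scaling, so these values are descriptive. The genes whose levels followed a member most closely were Cd80 (0.83) and Lgals1 (0.79) for Cd81, Arap2 (0.90) and Slc37a2 (0.87) for Fyn, and Sema4d (0.89) and Man1b1 (0.84) for Plcg2. Cd80, a co-stimulatory ligand of T cells, rose by 2.75 at 12 h (adjusted p = 1.59e-07) and by 2.50 at 24 h (adjusted p = 2.58e-07). For the members that did not pass, they were Ly6e (0.78) and Pfn1 (0.78) for Cd79a, Emp3 (0.89) and Rmnd5b (0.86) for Cd79b, Ppp1r10 (0.82) and Cst3 (0.79) for Blnk, Tardbp (0.80) and Ankle2 (0.78) for Btk, and Arhgef11 (0.82) and Iqgap3 (0.82) for Syk.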

How the data were processed

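Transcripts were measured on Affymetrix Mouse Gene ST 1.0 arrays, 1 per culture, 30 in all. The authors summarised probe sets by robust multi-array averaging (justRMA of the affy package) and deposited log2 values, and the mm9 build is given in the submitters' notes on processing. This procedure gives all arrays a common distribution, so a change in total RNA is not visible. Of 34760 probe sets, 21640 carried 1 gene symbol, 1321 several and 11799 none; the brightest probe set stood for a gene, which left 19937 genes. Array number limits the precision.

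Groups came from the sample labels. Each comparison was fitted with limma 3.58.1 (lmFit and eBayes) in R 4.3.3 over all genes, with Benjamini-Hochberg adjustment over those genes and a threshold of 0.05: the 23 parental arrays together, the untreated lines with the 5 parental 0 h arrays, 16 arrays for the response to treatment with a term per line, and the treated lines with the 5 parental 24 h arrays. The fits were also run on simulated data with independent noise on each array. Deviations shared by arrays of the same description number were not simulated. Parental arrays are labelled biological replicates of 1 lymphoma line, so p-values measure the spread between its cultures; each resistant line was measured 1 time.

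Titles and descriptions number the 6 h and 12 h arrays differently. Arrays with the same description number had correlated deviations from their time means. The lowest r was over 0.1 in 9 of 10 pairs of times and 0.07 between 0 and 48 h. Between 0 and 48 h, 4 of 5 arrays correlated best with their own number, beside 3 of 5 between 0 and 24 h. Blocked values of the members therefore stand beside the results for all comparisons of times. The blocked pathway counts at 48 h are in the closing section. Title numbers match the description numbers at 0, 24 and 48 h, and did not pair the 6 h and 12 h arrays with those times.

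Members and lists were chosen with earlier results of these data known. The members are always named, then up to 4 genes of the pathway list in each direction with the smallest p among those called, and the 2 genes of highest correlation with a member. Alternatives tried were other scalings, filters, probe set choice, variance model, blocks, a fibroblast covariate and leaving out arrays.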

Additional observations from a re-analysis of the deposited data

Results flagged for a closer look

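Dixon's test for a value that stands apart was applied to 48 groups of 4 or 5 arrays (the 8 members in the 5 parental times and the untreated lines). It picked out 2 values, and chance alone gives about 1 in 20 groups, or 2.4 here. Cd79b was at 13.61 on the first parental 12 h array, where the median of the 4 arrays was 13.52. Plcg2 was at 12.31 on the second parental 12 h array, where the median was 12.23. Neither gene passed the test at 12 h with all arrays.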

How the results depend on the processing

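At 12 h the count of members called was 1 (Cd81) and became 0 with median centring, 75th percentile centring, the title number as replicate block or only the groups compared in the fit, and 2 with the description number as replicate block; leaving out 1 array at a time gave 0 to 1, with 0 without parental 0 h array 1, 2 or 3 or any of the 4 parental 12 h arrays. At 24 h the count was 3 and became 1 with median centring or the fibroblast covariate, and 0 with 75th percentile centring or only the groups compared; leaving out 1 array gave 1 to 3. At 48 h it was 0 and became 1 (Cd81) when dim probe sets were left out or with trend and robust variances, and 2 (Cd81 and Fyn) with the description number as replicate block. That block called 8 of the 54 other pathway genes higher and 1 lower at 48 h (3.28% of all genes), against 1 higher without it. From 24 to 48 h the members' count was 0 and became 1 (Fyn) with that block. For the treated lines against parental cells at 24 h it was 0 and became 1 (Fyn) without the 2 arrays of highest fibroblast level. Those arrays also had the lowest Fyn levels of parental cells at 24 h. The description-number block changed no other call of a member. For the resistant lines 85 of 86 counts under the alternatives stayed at 0. Of 1448 single values under the alternatives, 1412 kept their side of the threshold, 29 of the called ones were lost, 7 were gained, and no called value changed sign; 81 values that passed in neither fit changed sign. Centring on the 75th percentile moved the median change of all genes at 24 h from −0.04 to −0.14. The cause of these changes was not tested.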
